A study of Rattus norvegicus with 39 samples.

Results

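Esr1, Esr2 and Pgr encode the 3 classical nuclear receptors for the ovarian hormones, and their mRNA was followed here in ribosome-bound RNA from D1 and D2 neurons of the nucleus accumbens (NAc) of female rats. The members are the 3 rows of the count table for Esr1 (ENSRNOG00000019358), Esr2 (ENSRNOG00000005343) and Pgr (ENSRNOG00000006831), out of 23978 genes. They were chosen by identifier, and the pairing of each identifier with its symbol was taken as given, since the tables read here do not list these 3. The rats were heterozygous Long-Evans Drd1a-iCre (D1-Cre) or Drd2-iCre (D2-Cre) females whose NAc had received the Cre-dependent virus AAV9-DIO-Rpl22-3xHA-Ires-EYFP. The virus places a hemagglutinin (HA) tag on a ribosomal protein of Cre-positive cells, so that an HA immunoprecipitation (IP) recovers the mRNA those cells had on ribosomes. Each rat was in proestrus or in diestrus at its injections and received saline or 10 mg/kg ketamine 6 times, 1 injection every 4 days in most rats. Tissue was collected 4 days after the last injection, shortly after a return to the test chamber without drug. Crossing cell type, stage and treatment gives 8 groups with 5 libraries each and 1 rat per library, except proestrus D2 with ketamine, which has 4 because the authors excluded 1 library. Drd2-iCre can also mark cholinergic interneurons, which carry the D2 receptor, and ketamine-treated rats were sequenced only if their activity had risen over the injections, which limits both comparisons as models.

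Estrogen receptor alpha (Esr1) and beta (Esr2) are hormone-activated transcription factors that bind estradiol, and the progesterone receptor (Pgr) is their progesterone-binding relative. In reproductive tissues and the hypothalamus, Pgr is a well-known estrogen-induced gene. Estradiol and progesterone rise in proestrus and are low in most of diestrus, and estradiol also acts at the membrane of striatal neurons, where estrogen receptors signal together with metabotropic glutamate receptors. These receptors are known to be sparse in the adult striatum, and their mRNA is far more abundant in hypothalamic and preoptic nuclei. The design asks whether translation in NAc neurons differs between cell types, across the cycle and after repeated ketamine, and the receptors bear on the question about the cycle through their ligands, which change between the stages.

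All 3 receptors were detected, at low counts. The libraries held a median of 20494896 counts, the deepest 43224256 (library 22, proestrus D2 ketamine), and 38 of the 39 at least 16118050. The exception was library 39 of diestrus D2 saline, with 2396517 counts, and the main receptor values of the comparisons that include it are given below with and without it. A library's limit of detection was set at the CPM (counts scaled to a common library size of 1e+06) that 3 counts are worth after TMM normalisation, which is also the level that a count of 0 still allows. This limit lay between 0.0698 and 0.184 CPM in 38 libraries, with a median of 0.146 over all 39, and at 1.25 CPM in library 39. Over all libraries Pgr averaged 2.46 ± 0.636 CPM (SD, n = 39), Esr1 0.449 ± 0.288 CPM and Esr2 0.445 ± 0.255 CPM. Without library 39, the means over the other 38 libraries were 2.47 ± 0.641 CPM for Pgr, 0.461 ± 0.282 for Esr1 and 0.457 ± 0.248 for Esr2. The median gene with at least 1 count averaged 7.14 CPM, and 44.1% of the genes in the table, those with no count included, lay below Esr1, 44.1% below Esr2 and 52.6% below Pgr. CPM do not account for transcript length, so these values do not rank the 3 receptors against each other.

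The labelled cell types were checked against markers. Adora2a, the adenosine receptor of D2 neurons, lay between 452 and 1063 CPM in the D2 libraries and between 141 and 221 CPM in the D1 libraries, without overlap. It is the only D2 marker of 6 listed that could be paired with an identifier, and none of the 6 D1 markers and none of the 6 cholinergic markers could. Markers of other cells also differed between the cell types by edgeR's test over all 39 libraries. All 3 paired interneuron markers of 9 listed were lower in D2 libraries (Nos1, log2 difference -1.84, Sst, -1.51, and Kit, -0.73), and their summed level ran from 290 to 874 CPM in D1 and from 87.4 to 307 CPM in D2 libraries. Of the 8 paired glial and endothelial markers, 6 were higher in D2 libraries, with log2 differences from 0.30 for Pdgfra to 0.79 for Flt1, and the summed oligodendrocyte level ran from 144 to 237 CPM in D1 and from 164 to 370 CPM in D2. Among all genes 34.6% were called in this comparison at an adjusted p under 0.1. The pairing ran through the authors' result tables, which list genes by their results in these libraries. The paired markers, Adora2a included, therefore do not stand for their lists. None of these markers was at 0 in a library. Since each library is a bulk extract, fewer cells with a receptor and less receptor mRNA per cell cannot be told apart.

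Pgr was present above the limit in all 39 libraries. In order of library number, its counts were 29, 64, 67, 62 and 42 in proestrus D1 saline, 28, 42, 45, 60 and 71 in proestrus D1 ketamine, 45, 53, 61, 55 and 39 in diestrus D1 saline, and 42, 63, 71, 34 and 37 in diestrus D1 ketamine. The D2 counts of Pgr were 47, 61, 58, 54 and 56 in proestrus saline, 21, 91, 73 and 73 in proestrus ketamine, 27, 48, 62, 65 and 5 in diestrus saline, and 35, 55, 44, 70 and 37 in diestrus ketamine. The ranges of the 8 groups overlapped, and the count of 5 came from library 39, where it corresponds to 2.08 CPM, close to the mean of the other libraries. Group means of Pgr ran from 2.24 ± 0.569 CPM (SD, n = 5) in diestrus D2 ketamine to 2.73 ± 0.345 CPM in proestrus D2 saline, with diestrus D2 saline at 2.29 ± 0.719, or 2.35 ± 0.819 (n = 4) without library 39. The widest spread was in proestrus D2 ketamine, where the 4 libraries lay between 1.02 and 3.69 CPM.

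Esr1 was near the limit in part of the libraries. Its counts were 0, 11, 4, 8 and 13 in proestrus D1 saline, 7, 16, 13, 7 and 12 in proestrus D1 ketamine, 22, 17, 5, 12 and 13 in diestrus D1 saline, and 8, 14, 19, 2 and 18 in diestrus D1 ketamine. In D2 libraries the Esr1 counts were 6, 7, 11, 2 and 10 in proestrus saline, 1, 21, 7 and 17 in proestrus ketamine, 6, 8, 13, 4 and 0 in diestrus saline, and 3, 9, 7, 1 and 11 in diestrus ketamine. In total 7 libraries held 3 counts or fewer, 2 of 20 in D1 and 5 of 19 in D2. A count of 0 occurred in library 1 of proestrus D1 saline, where it allows up to 0.157 CPM, and again in library 39 of diestrus D2 saline, where it allows up to 1.25 CPM and therefore says little. Group means of Esr1 ran from 0.676 ± 0.296 CPM (SD, n = 5) in diestrus D1 saline through 0.593 ± 0.253 in proestrus D1 ketamine and 0.586 ± 0.342 in diestrus D1 ketamine to 0.421 ± 0.342 (n = 4) in proestrus D2 ketamine. The lower part of the order held proestrus D2 saline at 0.364 ± 0.199, proestrus D1 saline at 0.352 ± 0.298, diestrus D2 ketamine at 0.313 ± 0.248 and diestrus D2 saline at 0.285 ± 0.217 CPM. The last place rests on library 39. Without it, diestrus D2 saline had a mean Esr1 of 0.357 ± 0.17 CPM (SD, n = 4), between proestrus D2 saline and proestrus D1 saline and above diestrus D2 ketamine. It was still below diestrus D1 saline, by 0.319 CPM in place of 0.39.

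Esr2 also came down to the limit in some libraries, and its 3 highest CPM values were in D2 libraries of ketamine-treated rats. Its counts were 8, 16, 14, 8 and 10 in proestrus D1 saline, 5, 6, 5, 2 and 14 in proestrus D1 ketamine, 11, 6, 2, 8 and 9 in diestrus D1 saline, and 8, 7, 8, 3 and 12 in diestrus D1 ketamine. In D2 libraries the Esr2 counts were 5, 12, 15, 4 and 13 in proestrus saline, 4, 28, 27 and 20 in proestrus ketamine, 9, 10, 7, 4 and 0 in diestrus saline, and 14, 6, 21, 12 and 4 in diestrus ketamine. The 4 libraries with 3 counts or fewer were 3 D1 libraries and library 39, which held the only count of 0. Group means of Esr2 were highest in proestrus D2 ketamine, at 0.744 ± 0.416 CPM (SD, n = 4), followed by 0.525 ± 0.141 (n = 5) in proestrus D1 saline, 0.512 ± 0.281 in diestrus D2 ketamine and 0.491 ± 0.266 in proestrus D2 saline. Below these lay 0.371 ± 0.165 in diestrus D1 ketamine, 0.358 ± 0.177 in diestrus D1 saline, 0.342 ± 0.234 in proestrus D1 ketamine and 0.278 ± 0.187 CPM in diestrus D2 saline. Here too the last place rests on library 39, without which diestrus D2 saline had 0.347 ± 0.121 CPM (n = 4), above proestrus D1 ketamine. In each receptor's order, every group differed from its neighbour by less than the pooled SD of the 2 groups, the widest gaps being 0.165 CPM for Esr1, 0.218 CPM for Esr2 and 0.147 CPM for Pgr. Sorting makes neighbours close, so these gaps do not bear on groups further apart in the order.

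**Figure D1:**
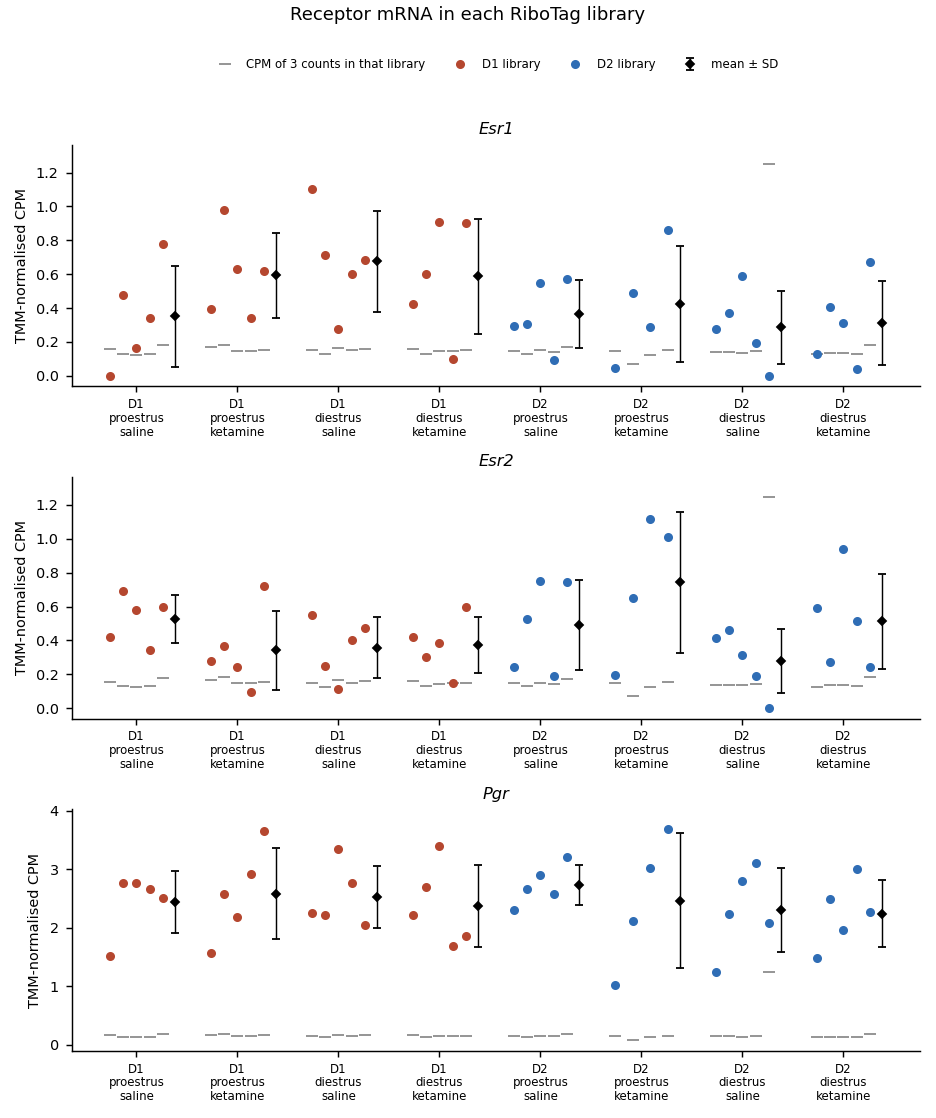
TMM-normalised CPM of Esr1, Esr2 and Pgr (vertical axes, a separate scale for each gene) in each library of the 8 groups (horizontal axis, libraries in number order within a group), with the group mean ± SD as a black diamond and the CPM of 3 counts in each library as a grey dash. Pgr lies above the dash in all 39 libraries, Esr1 and Esr2 come down to it in several, and the dash at 1.25 CPM is library 39 of diestrus D2 saline.

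Counting error alone did not set the precision of these levels. Pearson's statistic of the counts within the 8 groups, which is near its 31 degrees of freedom where libraries differ only by counting, was 102 for Esr1, 72.1 for Esr2 and 123 for Pgr, or 3.28, 2.33 and 3.96 per degree of freedom. Libraries of one group therefore differed more than a Poisson count would, and the intervals below, which cover counting error only, are narrower than the spread between rats. Summed over the 20 D1 libraries, Esr1 had 221 counts, or 0.545 CPM with an exact Poisson 95% interval of 0.475 to 0.622. The 19 D2 libraries had 144 Esr1 counts, or 0.355 CPM (0.299 to 0.418). For Esr2 the sums were 162 counts in D1, or 0.399 CPM (0.34 to 0.466), and 215 in D2, or 0.53 CPM (0.462 to 0.606). For Pgr they were 1010 counts in D1, or 2.49 CPM (2.34 to 2.65), and 982 in D2, or 2.42 CPM (2.27 to 2.58).

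**Figure D2:**
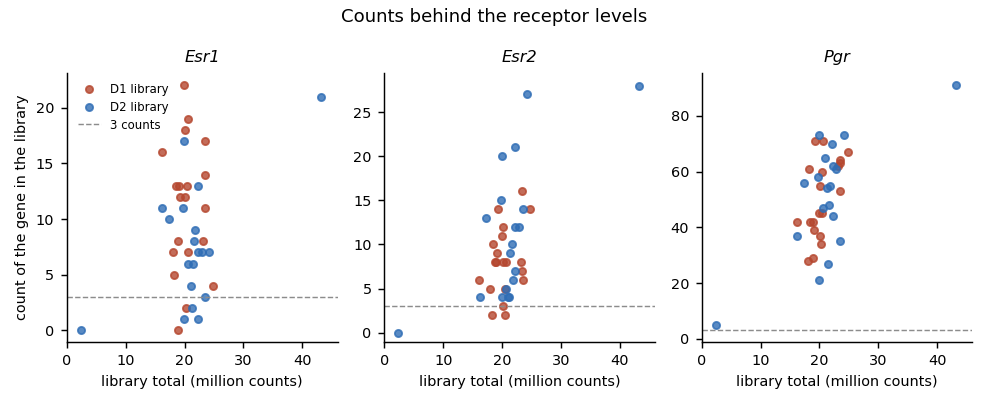
Count of each receptor gene (vertical axes) against the library's total count (horizontal axis, in units of 1e+06), with D1 libraries in red, D2 libraries in blue and 3 counts as a dashed line. Most libraries lie near the median of 20494896, the deepest at 43224256 counts held the highest Pgr count of 91 and the highest Esr2 count of 28, and library 39 at 2396517 held 0, 0 and 5 counts of Esr1, Esr2 and Pgr.

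The comparison of cell types over all 39 libraries, with stage and treatment in the model, is the one with the most libraries behind it. The D1 values of Esr1 ran from 0 to 1.104 CPM (median 0.601, 20 libraries) and its D2 values from 0 to 0.858 CPM (median 0.305, 19 libraries). The ranges overlapped, while 16 of the 20 D1 libraries were above the D2 median and 4 were above the highest D2 library. The log2 difference of D2 from D1 was -0.65 ± 0.30 (SE), with a 95% interval from 0.415-fold to 0.971-fold, and an adjusted p of 0.105 (edgeR's quasi-likelihood test, Benjamini-Hochberg over 14129 genes; 0.0368 unadjusted), so Esr1 was not called at the threshold of 0.1. Among all genes 34.6% were called in this comparison and 37.7% had an unadjusted p under 0.05. Esr1 stood at the threshold, and its call moved with the processing. Its adjusted p was 0.0666 by DESeq2 and 0.0855 with blocks of 8 consecutive library numbers, and over all alternatives it ranged from 0.0406 to 0.181. Leaving out 1 library brought the call for 9 of the 39 libraries, with adjusted p = 0.0581 without library 1, 0.0612 without 17, 0.0883 without 19, 0.0906 without 23, 0.0962 without 25, 0.0947 without 26, 0.063 without 28, 0.0768 without 37 and 0.0406 without 38. The direction was the same in all of these, and without the shallow library 39 the difference was -0.53 (adjusted p = 0.118). The interneuron markers moved the same way and the glial and endothelial markers the opposite way in these libraries, and their part in the Esr1 difference was not tested.

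Neither of the other receptors was called between the cell types. The D1 values of Esr2 ran from 0.0975 to 0.722 CPM (median 0.392) and its D2 values from 0 to 1.12 CPM (median 0.464), and 5 D2 libraries exceeded the highest D1 library. Its log2 difference over all 39 libraries was 0.36 ± 0.25 (adjusted p = 0.32, interval 0.897-fold to 1.83-fold). Pgr had almost the same level in both, with medians of 2.54 CPM in D1 and 2.49 CPM in D2 libraries and a log2 difference of -0.02 ± 0.13 (adjusted p = 0.945). Its 95% interval, from 0.824-fold to 1.18-fold, is the narrowest of the 3 in this comparison. Without library 39, Esr2 differed by 0.46 and Pgr by 0.0072, and neither was called. In the 20 saline libraries alone, where 28.9% of 13689 genes were called, the log2 differences were -0.55 ± 0.45 for Esr1 (adjusted p = 0.418), -0.25 ± 0.35 for Esr2 (0.653) and 0.02 ± 0.16 for Pgr (0.949). Without library 39 they were -0.39, -0.13 and 0.10, none called.

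Within single stages and treatments the receptors were not called between D1 and D2 either, and the low-count filter removed Esr1 or Esr2 from part of these fits. In proestrus ketamine, Esr2 lay at 0.28, 0.368, 0.243, 0.0975 and 0.722 CPM in the D1 libraries and at 0.195, 0.651, 1.12 and 1.01 CPM in the D2 libraries. A pair of D2 libraries stood above all D1 libraries and 1 lay among the lowest, so the groups overlapped. The low-count filter had removed Esr2 from the ketamine comparison in proestrus D1 and from both diestrus comparisons of the cell types. In proestrus ketamine Esr2 passed it mainly through the D2 libraries, where its mean was the higher, which limits this fit. The log2 difference of Esr2 there was 1.36 ± 0.42, with an interval of 1.37-fold to 4.78-fold and an adjusted p of 0.107 by edgeR (0.0063 unadjusted), against 5.62% of 13339 genes called and 14.8% with an unadjusted p under 0.05. The adjusted p of this difference fell to 0.0761 with 1 surrogate variable and to 0.0899 without library 22, and reached 0.503 with blocks of library numbers, a range that includes the 0.23 of DESeq2. An exact 2-sided permutation test of the Esr2 CPM, at 0.744 ± 0.416 (SD, n = 4) against 0.342 ± 0.234 (n = 5), gave p = 0.119. In the same comparison Esr1 had a log2 difference of -0.50 ± 0.40 (adjusted p = 0.652) and Pgr of -0.09 ± 0.24 (0.924).

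In diestrus saline, Esr1 lay at 1.104, 0.713, 0.275, 0.602 and 0.684 CPM in the D1 libraries and at 0.277, 0.371, 0.587, 0.191 and 0 CPM in the D2 libraries. A single D1 library fell within the D2 range. The log2 difference was -1.40 ± 0.75, with an interval of 0.121-fold to 1.19-fold and adjusted p = 0.492 by edgeR, while 4.11% of 13292 genes were called. The exact 2-sided permutation test of the Esr1 CPM gave p = 0.0397 with no adjustment (0.676 ± 0.296 against 0.285 ± 0.217 CPM, SD, n = 5 each), the only 1 of 36 such tests of a receptor between 2 groups below 0.05. Only 2 of the 10 versions with 1 library left out kept a permutation p under 0.05, their p running from 0.0159 to 0.0794, and without library 39 it was 0.0794. The edgeR difference without library 39 was -0.91 (adjusted p = 0.43). The smallest p that 5 against 5 libraries allow is 0.0079, and no receptor separated 2 groups without overlap in these 36 tests. The permutation tests were run on the receptors only, so the shares of all genes under 0.05 or without overlap are not known. Pgr differed by 0.21 ± 0.27 (log2, adjusted p = 0.838), although its mean CPM was the lower in D2 (2.29 ± 0.719 against 2.53 ± 0.530), and the sign turned under several alternatives. Esr2, at 0.358 ± 0.177 CPM in D1 and 0.278 ± 0.187 in D2, was left to the exact permutation test, with p = 0.508 (n = 5 each). Without library 39 this Esr2 difference shrank from -0.0802 to -0.0108 CPM (exact permutation test, p = 0.944), and that of Pgr from 0.21 to 0.077 on the log2 scale.

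In proestrus saline, 5.41% of 13283 genes were called, and Esr2 and Pgr differed by -0.04 ± 0.49 and 0.16 ± 0.23 on the log2 scale (adjusted p = 0.981 and 0.773). Esr1, at 0.352 ± 0.298 CPM in D1 and 0.364 ± 0.199 in D2 (SD, n = 5 each), had nearly the same mean in both (exact permutation test, p = 0.944). In diestrus ketamine, 12.7% of 13358 genes were called, and Pgr differed by -0.09 ± 0.22 (adjusted p = 0.863). There Esr1 averaged 0.586 ± 0.342 CPM in D1 and 0.313 ± 0.248 in D2 (exact permutation test, n = 5 each, p = 0.19) and Esr2 0.371 ± 0.165 and 0.512 ± 0.281 CPM (p = 0.389). Esr1 thus had the lower mean in D2 libraries in 3 of 4 combinations of stage and treatment.

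The receptors were next compared between proestrus and diestrus. Over all 39 libraries, edgeR called 1 of 14129 genes between the stages, which is 0.00708%, and no receptor. Pgr averaged 2.56 ± 0.679 CPM (SD, n = 19) in proestrus and 2.36 ± 0.592 (n = 20) in diestrus, a log2 difference of 0.11 ± 0.13 (adjusted p = 0.822). The interval of this difference ran from 0.903-fold to 1.28-fold, so that under this model a larger change of Pgr between the stages lies outside it. Esr2 averaged 0.514 ± 0.285 CPM in proestrus and 0.38 ± 0.21 in diestrus, a log2 difference of 0.36 ± 0.25 (adjusted p = 0.671, interval 0.907-fold to 1.81-fold). Esr1 averaged 0.433 ± 0.269 and 0.465 ± 0.31 CPM, a log2 difference of -0.12 ± 0.30 (adjusted p = 0.931, interval 0.601-fold to 1.41-fold). The intervals of Esr1 and Esr2 are wider than that of Pgr. Without library 39 the stage differences were 0.10 for Pgr, 0.33 for Esr2 and -0.14 for Esr1.

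Within groups, edgeR called 0 of 13183 genes between the stages in D1 saline, 0 of 13220 in D1 ketamine, 0 of 13340 in D2 saline and 0 of 13595 in D2 ketamine (0% each), with 470 to 549 genes at an unadjusted p under 0.05 and 0 to 4 called by DESeq2. Leaving out 1 library gave 0 to 14 called genes in D1 saline, the 14 without library 33, and 0 or 1 in the other groups. The largest receptor difference was that of Esr1 in D1 saline, -0.95 ± 0.62 on the log2 scale (adjusted p = 0.999, interval 0.203-fold to 1.32-fold), with 0.352 ± 0.298 CPM in proestrus and 0.676 ± 0.296 in diestrus (exact permutation test, n = 5 each, p = 0.127). Leaving out 1 library gave -1.40 (without library 33) to -0.44 (without library 1). In D1 ketamine Esr1 averaged 0.593 ± 0.253 CPM in proestrus and 0.586 ± 0.342 in diestrus. Its log2 difference was -0.07 ± 0.37, although its mean CPM was slightly the higher in proestrus. Pgr differed by -0.09 ± 0.21 in D1 saline, 0.11 ± 0.22 in D1 ketamine, 0.21 ± 0.22 in D2 saline and -0.21 ± 0.31 in D2 ketamine, where its mean CPM was nevertheless the higher in proestrus (2.46 ± 1.15 against 2.24 ± 0.569). Esr2 differed by 0.10 ± 0.53 in D2 ketamine, where it passed the filter. The exact permutation p of the stage comparisons that the filter left out, 3 of Esr2 and 2 of Esr1, lay between 0.143 and 0.81 (n = 4 or 5). In D2 saline, library 39 bears on these differences. Without it, Esr2 differed by 0.144 CPM in place of 0.213 (exact permutation test, p = 0.349), Esr1 by 0.0067 CPM in place of 0.0781 (p = 0.952) and Pgr by 0.19 on the log2 scale.

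Repeated ketamine was not followed by a called change of any receptor. Over all 39 libraries edgeR called 0 of 14129 genes (0%), with 357 at an unadjusted p under 0.05 and 0 called by DESeq2. The log2 differences of ketamine from saline were 0.17 ± 0.31 for Esr1 (interval 0.733-fold to 1.73-fold), 0.12 ± 0.26 for Esr2 (0.759-fold to 1.55-fold) and -0.08 ± 0.13 for Pgr (0.786-fold to 1.13-fold), each with an adjusted p of 1.00. Without library 39 they were 0.078, 0.087 and -0.11. Pgr averaged 2.50 ± 0.527 CPM (SD, n = 20) in saline and 2.41 ± 0.746 (n = 19) in ketamine libraries. Within cell type and stage, edgeR called 1 of 13183 genes in proestrus D1 (0.00759%), 3 of 13214 in diestrus D1 (0.0227%), 0 of 13414 in proestrus D2 and 0 of 13455 in diestrus D2 (0% each). In the D1 comparisons 764 and 352 genes had an unadjusted p under 0.05, and DESeq2 called 16 and 10. In the D2 comparisons the counts were 456 and 354, and DESeq2 called 1 and 0.

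No receptor was called for ketamine in a single group. Pgr differed by 0.09 ± 0.20 (log2) in proestrus D1, -0.09 ± 0.22 in diestrus D1, -0.32 ± 0.25 in proestrus D2 and -0.16 ± 0.31 in diestrus D2. Esr1 went from 0.352 ± 0.298 to 0.593 ± 0.253 CPM in proestrus D1 (exact permutation test, n = 5 each, p = 0.214) and went from 0.676 ± 0.296 to 0.586 ± 0.342 CPM in diestrus D1. Esr2 went from 0.525 ± 0.141 to 0.342 ± 0.234 CPM in proestrus D1 (exact permutation test, n = 5 each, p = 0.183). In D2 libraries Esr2 went from 0.491 ± 0.266 to 0.744 ± 0.416 CPM in proestrus, a log2 difference of 0.52 ± 0.45 (adjusted p = 0.999), and from 0.278 ± 0.187 to 0.512 ± 0.281 CPM in diestrus (exact permutation test, n = 5 each, p = 0.159). Without library 39 the diestrus D2 difference of Esr2 was 0.165 CPM in place of 0.234 (exact permutation test, p = 0.333), that of Esr1 was -0.0442 CPM in place of 0.0272 (p = 0.786), and that of Pgr was -0.15 on the log2 scale. The mean of Esr2 was thus higher after ketamine in both D2 groups, and it was lower or within 0.0131 CPM of saline in the D1 groups. The test of that difference, the interaction of cell type with ketamine over all 39 libraries, gave a log2 difference of differences of 0.88 ± 0.53 for Esr2 (0.102 unadjusted, 1.00 after adjustment in edgeR, interval 0.88-fold to 3.87-fold) and did not pass the threshold. Without library 39 it was 0.98 (0.0586 unadjusted, 0.999 after adjustment in edgeR).

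The other interactions were no larger relative to their errors. Cell type by stage gave 0.78 ± 0.62 for Esr1, 0.30 ± 0.50 for Esr2 and 0.12 ± 0.26 for Pgr, and stage by ketamine gave 0.71 ± 0.61, -0.35 ± 0.50 and 0.01 ± 0.26. Cell type by ketamine was -0.15 ± 0.64 for Esr1 and -0.22 ± 0.27 for Pgr. Without library 39, cell type by stage gave 0.61, 0.20 and 0.094, stage by ketamine 0.67, -0.41 and 0.0054, and cell type by ketamine -0.11 for Esr1 and -0.21 for Pgr. EdgeR called 0 of 14129 genes in each of the 3 interactions (0%), with 324 to 498 genes at an unadjusted p under 0.05 and 1 to 4 called by DESeq2. Over the 19 comparisons, edgeR called no receptor where it passed the filter. An unadjusted p under 0.05 was found for Esr1 between the cell types over all libraries and for Esr2 between the cell types in proestrus ketamine, and DESeq2 called Esr1 in the first of these. In the second, Esr2 had passed the filter mainly through the D2 libraries, where its mean was the higher.

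**Figure D3:**
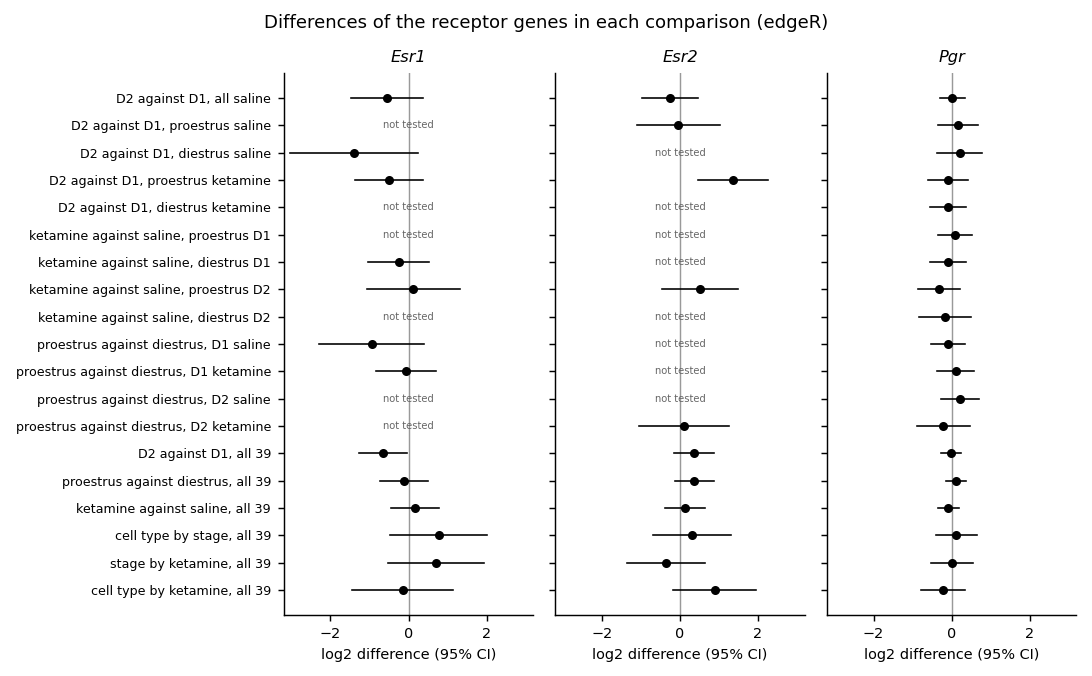
Log2 difference (horizontal axes, the same scale in each panel) of Esr1, Esr2 and Pgr in each of the 19 comparisons (rows), as the edgeR estimate with its 95% confidence interval, positive for D2 over D1, proestrus over diestrus and ketamine over saline, and for interactions the difference of differences. The intervals of Pgr are the narrowest, that of Esr1 between the cell types over all 39 libraries ends just below 0, and "not tested" marks a receptor that the low-count filter removed from that fit.

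The pathway around the receptors was followed through lists of membrane receptors, coregulators, chaperones, steroid enzymes and known target genes. Of 112 listed genes, 12 could be paired with an identifier and 10 passed the filter. The pairing ran through those parts of the authors' result tables that could be read, which list genes by their results in these libraries, so the share of called genes among the 12 does not stand for the pathway. Over all 39 libraries 5 of the 10 were lower and 1 was higher in D2 than in D1 libraries, with a median log2 difference of -0.08 against -0.0023 over all genes and 34.6% of all genes called. None of the 10 was called for stage, ketamine or an interaction. The membrane progesterone receptor component Pgrmc1 and the 19 listed coactivators, Ncoa1 among them, were not among the paired genes and are not analysed here.

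Cyp19a1, which encodes aromatase, the enzyme that makes estradiol from testosterone, showed the largest difference of the paired pathway genes. Its 20 D1 values ran from 1.26 to 4.29 CPM around a median of 2.97, and its 19 D2 values from 0 to 2.04 CPM around a median of 0.861. Of the D1 libraries 17 were above the highest D2 library, library 15 of diestrus saline, and 16 D2 libraries were below the lowest D1 library, the value of 0 being library 39. The means were 2.79 ± 0.776 CPM (SD, n = 20) and 0.929 ± 0.454 (n = 19), a log2 difference of -1.62 ± 0.16 (adjusted p = 2.4e-10 by edgeR). Leaving out any 1 of the 39 libraries gave -1.73 to -1.53. Cyp19a1 was lower in D2 libraries by 1.37 ± 0.26 (log2) over the saline libraries (adjusted p = 8.2e-04), 1.67 ± 0.28 in proestrus ketamine (0.0039) and 1.88 ± 0.26 in diestrus ketamine (2.8e-04). In proestrus saline its difference was -0.97 ± 0.32 (adjusted p = 0.143) and in diestrus saline -1.44 ± 0.49 (0.198), short of the threshold. Stage and ketamine gave 0.22 ± 0.16 and -0.20 ± 0.16 over all libraries, neither called. The interneuron markers Nos1 and Sst, which mark cells known to be rare in the NAc, were lower in D2 libraries by similar amounts, and their part in the Cyp19a1 difference was not tested.

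The other enzymes differed little. Srd5a3, a steroid reductase that also serves protein glycosylation, was lower in D2 by 0.10 ± 0.04 (log2) over all libraries (adjusted p = 0.0657) and by 0.14 ± 0.06 over saline libraries (0.0725). The first call was lost without library 3, 6, 13 or 36 (-0.09 to -0.08, adjusted p from 0.104 to 0.113), and the second without library 1, 3, 5, 13, 17, 23, 25 or 39 (-0.16 to -0.12, adjusted p from 0.101 to 0.245). The hydroxysteroid dehydrogenases Hsd17b7 and Hsd17b10 had differences of 0.03 ± 0.12 and 0.05 ± 0.03 and were not called.

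Among the coregulators and related receptors, Esrrg, an orphan receptor of the estrogen-related family that does not bind estradiol, averaged 15.9 ± 4.25 CPM in D1 (SD, n = 20) and 12.8 ± 4.77 in D2 libraries (n = 19). Its log2 difference was -0.27 ± 0.10 over all libraries (adjusted p = 0.0342) and -0.54 ± 0.17 over saline libraries (0.0307). The latter shrank to -0.06 without library 1, -0.10 without library 17 and -0.12 without library 39, and was no longer called (adjusted p from 0.403 to 0.744). With 10 counts or more required in every library it was -0.28 and still called (adjusted p = 0.00774). Nenf, a secreted protein of the membrane-associated progesterone receptor family, was lower in D2 over the saline libraries by 0.18 ± 0.05 (adjusted p = 0.0211) and lost that call without library 1, 5, 17 or 39 (log2 differences from -0.11 to -0.04, adjusted p from 0.116 to 0.749). It also lost the call when every library had to hold 10 counts or more of a gene (-0.098, adjusted p = 0.108). Over all libraries the difference of Nenf was -0.06 ± 0.03 and was not called.

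Nrip1, a corepressor of ligand-bound estrogen receptors, was lower in D2 by 0.11 ± 0.04 (log2) over all libraries (edgeR adjusted p = 0.0377) and by 0.29 ± 0.07 in diestrus ketamine (0.0222). Nrip1 averaged 30.7 ± 2.26 CPM (SD, n = 5) and 31.3 ± 1.60 (n = 4) in the proestrus D2 groups and 27.3 ± 1.378 and 26.1 ± 1.44 (n = 5 each) in the diestrus D2 groups, while the D1 groups lay between 29.7 and 32.0 CPM. Its interaction of cell type with stage was 0.20 ± 0.08 (0.0121 unadjusted, 1.00 after adjustment in edgeR), which did not pass the threshold. The cochaperone Ptges3, part of the receptor-HSP90 complex, differed by -0.01 ± 0.02 and was not called.

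Gper1, the G protein-coupled membrane estrogen receptor, was hardly detected. It had 0 to 12 counts per library and 129 in all, 26 of 39 libraries held 3 counts or fewer and 7 held none, and it passed the filter in no comparison. Its mean was 0.123 ± 0.0988 CPM in D1 (SD, n = 20) and 0.19 ± 0.18 CPM in D2 libraries (n = 19), both close to the limit of detection. Pdzk1, known as an estrogen-induced gene in breast cells, had 0 to 6 counts and was not tested.

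**Figure D4:**
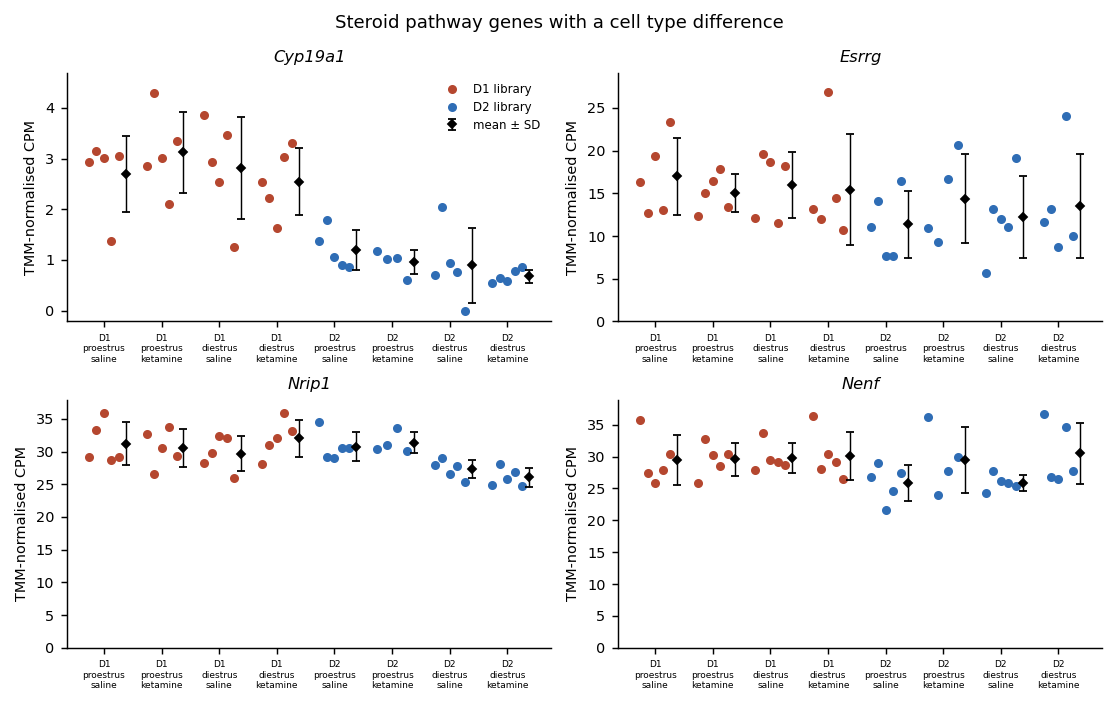
TMM-normalised CPM (vertical axes that include 0, a separate scale for each gene) of Cyp19a1, Esrrg, Nrip1 and Nenf in each library of the 8 groups (horizontal axes), with D1 libraries in red, D2 libraries in blue and the group mean ± SD as a black diamond. Cyp19a1 is the gene with the clearest separation, at 1.26 to 4.29 CPM in D1 and 0 to 2.04 CPM in D2 libraries, whereas the other genes overlap.

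Across the 39 libraries, the 5 genes most like Pgr in log2 CPM had Pearson r from 0.725 to 0.756, those most like Esr1 from 0.666 to 0.694 and those most like Esr2 from 0.605 to 0.647, among 14128 other genes that passed the filter. A symbol could be paired with 1 of these 15 genes, Mgat5, a glycosyltransferase gene, which had r = 0.753 with Pgr over all libraries and 0.747 after the group means were removed. The 2 genes listed first for Esr1 and Esr2, ENSRNOG00000051135 and ENSRNOG00000050742, had r of 0.694 and 0.647. Neither stayed among the 5 genes most alike without library 39 or by Spearman's rho. After the group means were removed, ENSRNOG00000051135 was still the first for Esr1 (r = 0.712), while ENSRNOG00000050742 was not among the 5 for Esr2. The lists of Esr1 and Esr2 were not stable. Without library 39, 1 of the 5 genes was shared for each, against 4 of 5 for Pgr. With library 39 kept, removing the group means left 1 shared gene for Esr1, 1 for Esr2 and 4 for Pgr. Spearman's rho left 1, 2 and 3. Without library 39 the genes listed first were G3bp2 (r = 0.729) and Tab3 (0.725) for Esr1 and Bltp3a (0.575) for Esr2, while Mgat5 had r = 0.78 with Pgr. Esr1 and Esr2 had r = 0.397 with each other, or 0.251 without library 39, Esr1 and Pgr 0.385 (0.388 without it), and Esr2 and Pgr 0.186 (0.173). The libraries share cell type, stage, treatment and depth, and at these counts the values describe the libraries only.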

How the data were processed

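Per the labels and the study's methods, polyribosome-bound RNA from single rats was made into stranded, poly(A)-selected libraries. The authors trimmed reads with fastp 0.23.4, checked them with FastQC 0.12.1, and quantified transcripts of mRatBN7.2 with Salmon 1.10.2, correcting for GC and sequence bias, before summing them per gene. The deposited values are unnormalised expected counts that are whole in the table, so a receptor's reads may include shares assigned by the quantifier.

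Here genes were filtered by edgeR's filterByExpr (minimum count 10), normalised by TMM and tested with edgeR's robust quasi-likelihood test with 2 svaseq surrogate variables, adjusted over all genes tested and called at an adjusted p under 0.1. Fits held the 2 groups compared, the 20 saline libraries, or all 39. Group means of CPM were compared by 2-sided exact permutation tests. 95% intervals of fold changes were built from the edgeR estimate, its standard error and the degrees of freedom of the test. The software was edgeR 4.0.16 with sva 3.50.0, DESeq2 1.42.0 and limma 3.58.1 under R 4.3.3. Steps were tested on simulated data. No number recurs across groups, so samples were not paired. Inputs are not used here.

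The receptors and the gene lists were chosen with earlier results of these data known. Named were the 3 receptors in each comparison, called pathway genes (at most 3 per list and direction), Gper1, and for likeness the 5 genes of highest r. Some called pathway genes are counted but not reported here by name. Alternatives were other numbers of surrogate variables, size factors, DESeq2, filters, a threshold of 0.05, blocks of 8 libraries, a single model of all libraries, CPM without TMM, a limit of 1 count and each library left out.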

Additional observations from a re-analysis of the deposited data

Results flagged for a closer look

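In proestrus D1 saline, Pgr was at 1.52 CPM in library 1, while the other 4 libraries lay between 2.51 and 2.76 CPM. The gap made up 0.8 of the range of the 5 values, above Dixon's 95% critical value. Library 1 also held the count of 0 of Esr1. It was 1 of 24 sets of a receptor and a group examined this way, and chance flags about 1 in 20. Without library 1, the log2 difference of Pgr between ketamine and saline in proestrus D1 was -0.10 in place of 0.09, and neither was called by edgeR.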

How the results depend on the processing

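Receptor differences kept their direction and their side of the threshold in 314 of 332 values under other settings. With 1 library left out, they did so in 895 of 966. The 332 include the stricter threshold of 0.05, which reuses the main difference. No receptor was called at the main threshold, so the values at the stricter one could not change. The 314 therefore overstate how far the differences withstood other settings. Called for Esr1 between the cell types over all 39 libraries were the differences by DESeq2 (-0.71) and with blocks of 8 library numbers (-0.64), and leaving out 1 library gave -0.81 to -0.53. Esr2 in proestrus ketamine was called with 1 surrogate variable (1.45). Leaving out 1 of the 9 libraries gave 1.1 to 1.52 in the 8 versions in which it still passed the filter. The sign turned under some settings. For Pgr between the cell types in diestrus saline (0.21) the values were -0.12 with no and -0.12 with 1 surrogate variable, -0.19 with blocks and -0.042 in the single model. Pgr in proestrus ketamine was 0.029 with 1 surrogate variable. Esr1 with ketamine in proestrus D2 was -0.12 with 1 surrogate variable, -0.069 by DESeq2 and -0.033 with no filter. Esr1 between the stages in D1 ketamine was 0.0035 by DESeq2, 0.061 with blocks and 0.0028 in the single model. Pgr between the stages in D2 ketamine was 0.13 with no and 0.15 with 1 surrogate variable, 0.098 with blocks and 0.089 in the single model. The cause was not tested.

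With 1 library left out, the sign turned for these. Between the cell types, Pgr ranged from -0.020 to 0.10 over saline libraries, -0.043 to 0.27 in proestrus saline, -0.0042 to 0.33 in diestrus saline, -0.20 to 0.17 in proestrus ketamine, -0.21 to 0.044 in diestrus ketamine and -0.067 to 0.034 over all 39. Esr2 in proestrus saline ranged from -0.47 to 0.23. For ketamine, Pgr ranged from -0.10 to 0.19 in proestrus D1 and -0.26 to 0.054 in diestrus D1, and Esr1 from -0.45 to 0.33 in proestrus D2. This range of Esr1 covers the 5 of 9 versions in which it still passed the filter. Between the stages, Pgr ranged from -0.22 to 0.073 in D1 saline, -0.14 to 0.24 in D1 ketamine and -0.51 to 0.51 in D2 ketamine, Esr1 from -0.24 to 0.24 in D1 ketamine and Esr2 from -0.25 to 0.71 in D2 ketamine. Stage by ketamine ranged from -0.078 to 0.14 for Pgr, and cell type by ketamine from -0.60 to 0.073 for Esr1. Differences in CPM ranged from -0.0764 to 0.118 for Esr1 between the cell types in proestrus saline, -0.0488 to 0.0686 for Esr2 with ketamine in diestrus D1, -0.063 to 0.103 for Esr1 with ketamine in diestrus D2, -0.124 to 0.0322 for Esr2 between the stages in D1 ketamine and -0.0369 to 0.233 for Esr1 between the stages in D2 ketamine.

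No paired analysis was possible because the groups share no library number. The blocks of 8 consecutive library numbers given above come from the numbers alone and do not replace a pairing. Esr1 and Esr2 could not be tested when each library had to hold 10 counts or more, and Pgr only in part of the comparisons. With a limit of 1 count in place of 3, Esr1 was at or under it in 4 libraries in place of 7 and Esr2 in 1 in place of 4, so depth limits these receptors more than Pgr.

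Counts of genes called between the cell types moved by over 1.5 times under some settings. In diestrus saline 546 became 1076 with no and 1254 with 1 surrogate variable, 1348 with blocks, 1115 with the stricter filter and 855 in the single model, and in proestrus saline 718 became 1362 with 1 surrogate variable. In proestrus ketamine 749 became 447 with no surrogate variable and 394 with blocks, in diestrus ketamine 1703 became 611 and 671, and over saline libraries 3958 became 2463 with the stricter filter. For ketamine in D1, the 1 and 3 genes became 16 and 10 by DESeq2 and 0 and 0 with fewer surrogate variables, with blocks or in the single model. For stage, ketamine in D2 and the interactions no other setting gave more than 4. Leaving out 1 library also moved the counts of called genes. Over saline libraries they ran from 1211 (without library 1) to 4217, with 1555 without library 17, 1916 without 39 and 2458 without 5. In proestrus saline they ran from 290 (without library 37) to 1699 (without 5), with 376 without 25, 422 without 33 and 467 without 13. In diestrus saline they ran from 267 (without library 23) to 926 (without 39), with 306 without 31. In proestrus ketamine they ran from 481 (without library 2) to 1097, in diestrus ketamine from 1159 to 2128 and over all 39 libraries from 4466 to 5135. Between the stages in D1 saline they ran from 0 to 14 (without library 33), and with ketamine from 0 to 3 in proestrus D1 and 0 to 5 in diestrus D1.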
